A study of Mus musculus with 10 samples.

Results

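Genes for heterogeneous nuclear ribonucleoproteins (hnRNPs) and for RNA helicases of the DEAD-box (Ddx) and DEAH-box (Dhx) families were followed in the mouse neocortex from mid-gestation to birth. Members were the genes whose symbol begins with Hnrnp, Ddx or Dhx in the deposited table. The Y-linked Ddx3y was left out, as were Ddx25 and Dhx36, which the authors' category column puts among translation-associated genes. This gave 59 genes of the 6147 listed, 19 hnRNPs and 40 helicases. Neocortex was taken from CD1 mice, an outbred strain labelled wild type, on 4 days of gestation (E12.5, then E14, then E15.5, then E17) and on the day of birth (P0). Each stage had 2 libraries made with an mRNA kit, 10 in all, and the labels name no mutation or treatment in any group. The submitters describe the 2 libraries of a stage as biological duplicates, prepared from tissue lysates. How many animals or litters stand behind each library, and their sex, is not stated, so p-values measure the spread between these libraries. Values are TPM, shares of all transcripts after division by gene length, so levels can be compared between genes. The number of reads behind each library is unknown here.

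hnRNPs are abundant nuclear proteins that coat RNA as it is transcribed and take part in splice site choice, packaging, transport and stability of mRNA. DEAD-box and DEAH-box helicases use ATP to unwind short RNA duplexes or to strip proteins from RNA. They drive the steps of the spliceosome, the assembly of ribosomes, the release of mRNA at the nuclear pore and the storage and decay of mRNA in the cytoplasm. The developing neocortex holds dividing progenitors and new neurons, which libraries of whole tissue do not separate. Several of the proteins regulate splicing in the nervous system.

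The cortical transcription factor genes Emx1 and Tbr1, read as a check of the labelled tissue, had means of 105 and 123 TPM over the 10 libraries. Within a stage the 2 libraries differed across the 59 genes with an SD of 0.092 on the log2 scale at E12.5, 0.093 at E14 and 0.079 at E15.5, and of 0.227 at E17 and 0.164 at P0. At P0 the libraries differed in one direction, and the median difference of replicate 1 from replicate 2 was -0.171 on the log2 scale for the 59 genes and -0.037 for all genes. At E17, 40 genes were higher in replicate 1. The median difference of replicate 1 from replicate 2 at E17 was 0.056 for the 59 genes and 0.157 for all genes.

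Nearly the whole set fell between E12.5 and P0. Any difference over the 5 stages was called in 55 of the 59 genes (82.9% of all genes tested) by the moderated F test of limma on log2(TPM + 1), with Benjamini-Hochberg adjustment over the 6048 genes tested. From E12.5 to P0, 56 were called (78.2% of all genes). Of the 59 genes, 55 were lower at P0 (adjusted p under 0.05), Dhx57 alone was higher, and Dhx34, Ddx49 and Ddx24 were not called. Over all genes tested 51.0% were called lower and 27.1% higher. All 59 members were tested, since none was under the minimum mean of 1 TPM. The P0 pair lay wholly under the E12.5 pair in 55 members, against 58.4% of all genes, and wholly above it in Dhx57, against 32.5%. The fall was at least 1 on the log2 scale in 22 members, against 20.0% of all genes. The median change of the members was -0.77 and that of all genes -0.27, and 55 of 59 members lay below the median of all genes. In summed TPM, the 19 hnRNPs went from 13810 ± 386 at E12.5 (SD, n = 2) through 12140 ± 220 at E14, 10560 ± 530 at E15.5 and 7937 ± 738 at E17 to 6528 ± 793 at P0, and the 40 helicases from 3321 ± 46.7 through 3036 ± 11.1, 2670 ± 39.1 and 2405 ± 158 to 2083 ± 235. Among the 100 genes with the highest stage mean in the table, 5 were hnRNPs at E12.5 and 1 at P0.

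Scaling moved the size of this change. TPM are shares of a total, and median-of-ratios scaling, which moves the median of all genes from -0.27 to -0.01, gave a members' median of -0.49 with 46 called lower and 3 higher, against 37.7% of all genes lower. All 19 hnRNPs and 24 helicases were called lower under each of 22 alternatives. Of the other called helicases, 12 lost the call under at least 1 alternative. Most members were called lower when either P0 library was left out. The share of all genes called in those fits is not given here.

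**Figure D1:**
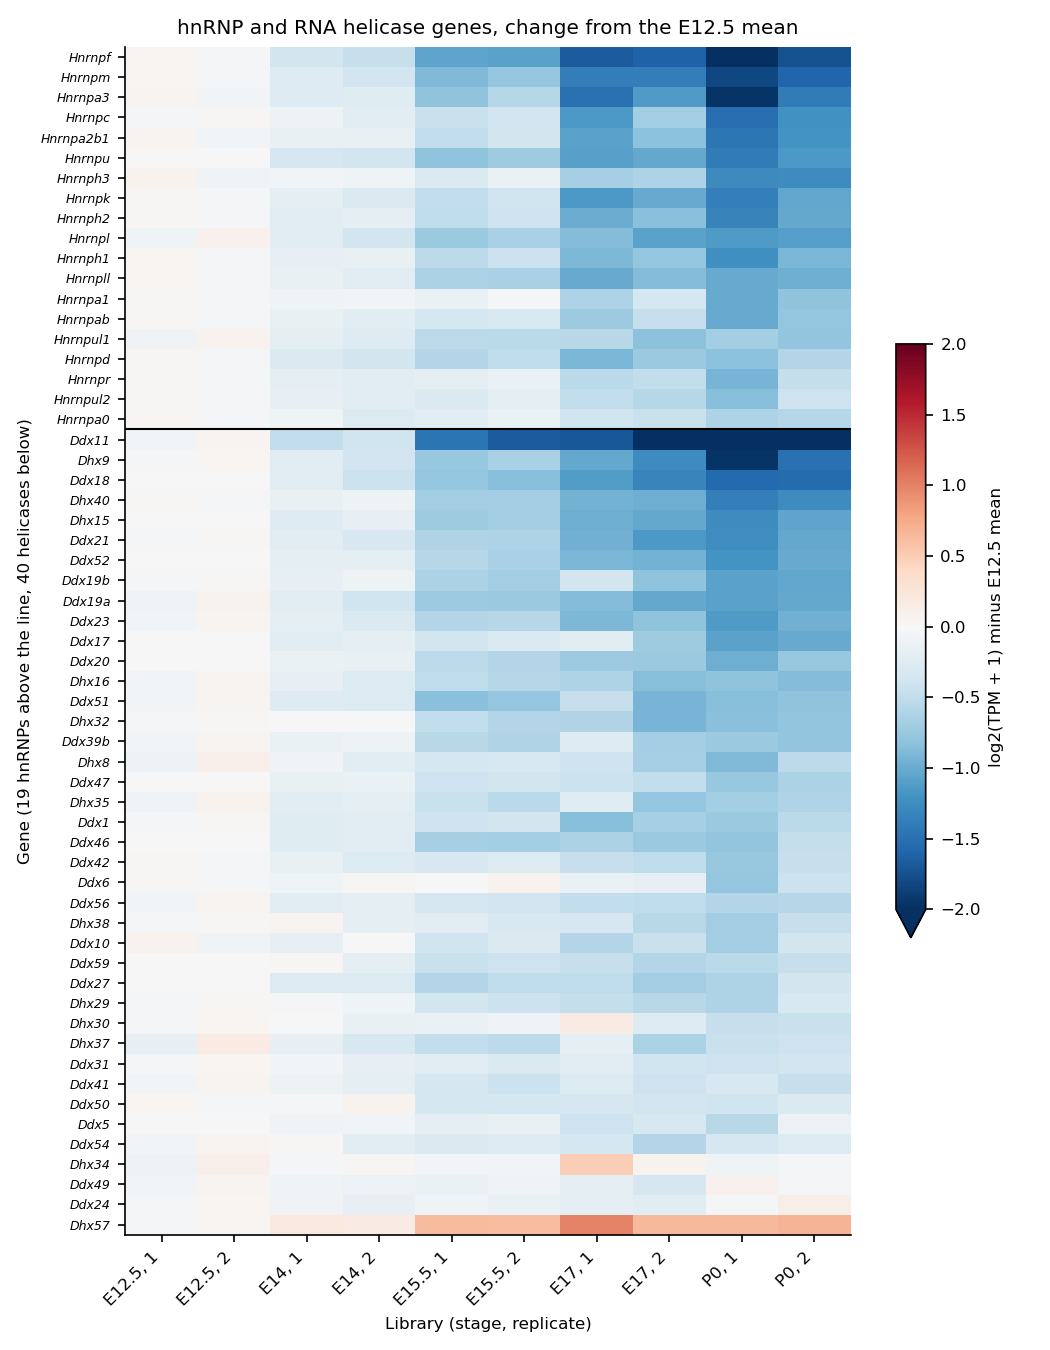
Heat map of the 59 genes (rows, 19 hnRNPs above the line and 40 helicases below it, each ordered by change) in the 10 libraries (columns, stage and replicate), coloured by log2(TPM + 1) minus the gene's E12.5 mean, with values under -2 drawn at -2. The columns turn bluer (lower) from E12.5 to P0 in nearly every row, P0 replicate 1 is lower than P0 replicate 2 in most hnRNP rows, and Dhx57 in the last row is the gene that is higher (redder).

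Marker genes of other cell types changed with stage in the same libraries. The 11 progenitor and proliferation genes in the table (of 12 listed) were all called lower at P0, and their summed level was between 2060 and 2180 TPM at E12.5, 838 and 855 at E15.5, and 325 and 332 at P0. The 8 neuronal genes were all called higher, from between 2650 and 2680 TPM to between 10200 and 11000. Genes of tissue around the neocortex were highest early. The 5 meningeal genes summed to 173 TPM in each E12.5 library and to between 106 and 111 TPM at E14. They were between 2.8 and 3.03 TPM at E15.5 and between 2.22 and 2.57 at P0. The 2 choroid plexus genes in the table were between 303 and 452 TPM at E12.5 and between 1400 and 1520 at E14. At E15.5 they were between 3.46 and 4.25 TPM, and at P0 between 3.07 and 4.57. The 2 embryonic globin genes were between 4320 and 4490 TPM at E12.5 and between 1880 and 1970 at E14. At E15.5 the globin genes were between 8.38 and 9.12 TPM, and at P0 between 1.88 and 2.31. Of these, Hbb-bh1 was listed at 0 in at least 1 library. The endothelial gene Cdh5 (1 of 7 vascular markers) was between 13.9 and 15.3 TPM at E12.5 and between 9.26 and 9.78 at E14. It was between 1.18 and 1.34 TPM at E15.5 and between 1.02 and 1.28 at P0. The microglial gene C1qb (1 of 7) was between 7.96 and 8.23 TPM at E12.5 and between 7.21 and 8.93 at E14. C1qb was between 4.66 and 4.93 TPM at E15.5 and between 7.07 and 7.81 at P0, and was not called from E12.5 to P0. The part of these changes in the fall of the hnRNP and helicase genes was not tested, and in whole tissue fewer cells of a type and less RNA per cell cannot be told apart.

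Promoters are shown for members with large falls and for the member that rose, to set their letters side by side. RefSeq promoter windows on GRCm38.p6 (250 bases before to 50 after the annotated start) matched 53 of the 59 members by symbol. Printed are the 250 bases before the start, 5′ to 3′ on the strand of the gene, for 3 members that fell and for Dhx57, the member that rose. The 3 had the largest falls among members with a single window whose 250 bases before the start overlap no untranslated region in GENCODE M21. Capitals mark matches on either strand to the letters of 6 motifs. These were CCGGAAG for ETS factors, the palindrome bound by NRF1 with 1 free base at its centre, the CCAAT box, and the E-box CACGTG. The remaining searches were for TATAAA, known as the TATA box, and for GGGCGG, known as the GC box.
Dhx9 (chr1:153487661-153487910, reverse strand): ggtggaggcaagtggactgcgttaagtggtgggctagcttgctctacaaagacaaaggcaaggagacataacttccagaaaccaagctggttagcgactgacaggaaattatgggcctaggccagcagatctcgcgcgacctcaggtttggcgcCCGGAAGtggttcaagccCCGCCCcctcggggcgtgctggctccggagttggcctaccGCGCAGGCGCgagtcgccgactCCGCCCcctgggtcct
Hnrnpa3 (chr2:75659009-75659258, forward strand): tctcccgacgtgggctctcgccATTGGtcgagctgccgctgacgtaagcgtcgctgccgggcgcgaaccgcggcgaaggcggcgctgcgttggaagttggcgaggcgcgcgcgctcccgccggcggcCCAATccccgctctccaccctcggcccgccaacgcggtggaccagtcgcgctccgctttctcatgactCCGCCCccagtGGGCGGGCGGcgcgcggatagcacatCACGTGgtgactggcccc
Hnrnpu (chr1:178337816-178338065, reverse strand): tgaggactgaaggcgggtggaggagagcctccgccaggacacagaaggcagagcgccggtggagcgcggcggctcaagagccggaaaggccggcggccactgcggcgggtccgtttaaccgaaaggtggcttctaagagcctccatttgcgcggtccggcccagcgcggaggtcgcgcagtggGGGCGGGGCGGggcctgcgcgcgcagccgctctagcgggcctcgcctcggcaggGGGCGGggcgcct
Dhx57 (chr17:80290477-80290726, reverse strand): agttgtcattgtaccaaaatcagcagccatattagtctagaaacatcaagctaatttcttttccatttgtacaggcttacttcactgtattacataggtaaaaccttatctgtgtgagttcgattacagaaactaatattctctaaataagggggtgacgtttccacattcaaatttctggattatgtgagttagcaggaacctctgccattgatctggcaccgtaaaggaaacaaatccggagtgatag
Dhx9 held 4 marked matches, Hnrnpa3 6, Hnrnpu 3 and Dhx57 none. In Hnrnpa3 and in Hnrnpu a pair of GC boxes overlap and show as a single run of capitals. Over whole windows, counting a gene once if any of its windows matched, CCAAT was in 31 of 53 members (58.5%) against 42.7% of the 4769 tested genes with a window, and in 13 of 17 hnRNPs. CCGGAAG was in 19 members (35.8% against 22.6%), 2 of them hnRNPs. The other shares were 18.9% against 14.1% for the NRF1 letters, 17% for the E-box (9 of 53, against 596 of 4769), 11.3% against 7.53% for TATAAA and 73.6% against 74.1% for the GC box. Over all 32851 windows these shares were 37.4% for CCAAT, 8.86% for CCGGAAG, 4.6% for NRF1, 7.15% for the E-box, 13.6% for TATAAA and 35.7% for the GC box. The differences were not tested, and a match is a run of letters, not a bound site.

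Among hnRNPs, the A/B and D group holds the most abundant members. All 6 genes of this group in the table were called lower from E12.5 to P0 (51.0% of all genes), with a median change of -0.89. Of these, 2 fell by at least 1 (20.0% of all genes). The counts of the other hnRNP groups are to be read against the same shares. Hnrnpa3, which takes part in cytoplasmic RNA transport, fell most in the group. It lay at 1594 and 1468 TPM at E12.5, 1280 and 1287 at E14, 871 and 1029 at E15.5, 541 and 698 at E17, and 393 and 580.2 at P0. Every later stage lay below E12.5, and the P0 libraries were at 31.8% of the E12.5 mean, a change of -1.68 (SE 0.17, adjusted p 2.51e-06); the gene lies at chr2:75659261-75669407, forward strand (GRCm38). Hnrnpa2b1, a splicing factor that also reads transport signals in mRNA, had the highest mean of all members at E12.5. Its libraries were at 2468 and 2300 TPM at E12.5, 2144 and 2150 at E14, 1688 and 1847 at E15.5, 1130 and 1347 at E17, and 874 and 1042 at P0, with a change of -1.32 (SE 0.12, adjusted p 8.25e-07). Its rank by stage mean among the 6147 genes was 17 at E12.5 and 114 at P0.

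Hnrnpa1, the splicing repressor long studied as a competitor of SR proteins, was nearly level until E15.5. It was at 2376 and 2304 TPM at E12.5, 2213 and 2254 at E14, 2143 and 2291 at E15.5, 1525 and 1837 at E17, and 1163 and 1346 at P0. The E15.5 libraries lay between 2143 and 2291 TPM, within the range of E12.5 and E14 or close to it, and the called falls came at E17 and P0, with changes of -0.40 (adjusted p 0.0253) and -0.42 (adjusted p 0.0134) by step and -0.90 (SE 0.11, adjusted p 1.77e-05) from E12.5 to P0. These step calls held under 16 and 17 of 21 alternatives. The first was lost without E15.5 replicate 1 (adjusted p 0.103) or E15.5 replicate 2 (0.185) and the second without P0 replicate 1 (0.104). Hnrnpa1 had the highest mean over all 10 libraries, and at P0 it was the 1 member still among the 100 highest genes. Hnrnpa0 fell least of all hnRNPs. It was at 1101 and 1062 TPM at E12.5, 1014 and 899 at E14, 931 and 982 at E15.5, 818 and 791 at E17, and 705 and 728 at P0, and the change was -0.59 (SE 0.09, adjusted p 5.29e-05). Hnrnpab, which binds mRNA for transport, was at 1393 and 1349 TPM at E12.5, 1235 and 1190 at E14, 1078 and 1108 at E15.5, 830.2 and 992 at E17, and 683 and 806 at P0 (-0.89, SE 0.11, adjusted p 1.2e-05). Hnrnpd, which marks AU-rich mRNAs for decay, was at 643 and 629 TPM at E12.5, 518 and 492 at E14, 424 and 449 at E15.5, 338 and 381 at E17, and 358 and 424 at P0 (-0.71, SE 0.10, adjusted p 3.08e-05). The lowest stage mean of Hnrnpd, 359.6 TPM, was at E17. In GENCODE M21, 29.1% of the exon bases of Hnrnpab overlap Phykpl on the opposite strand, and no source used here says whether counting used strand. Several hnRNP genes, Hnrnpa1 and Hnrnpa3 among them, have processed pseudogenes, so their reads could have been split.

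The F/H group binds runs of G in RNA and regulates splicing. All 4 genes fell by at least 1 on the log2 scale, with a median of -1.22. Hnrnpf fell most of all hnRNPs. It was at 205 and 196 TPM at E12.5, 155.02 and 145 at E14, 95.6 and 94.9 at E15.5, 62.8 and 64.7 at E17, and 46.9 and 59.0 at P0, with no overlap between any neighbouring stages, and the change was -1.91 (SE 0.10, adjusted p 7.7e-09). It was the 1 member called lower at each of the 4 steps, but its first call held under 16 of 22 alternatives and its last (adjusted p 0.0458) under 6 of 21. Without E14 replicate 2 the first had an adjusted p of 0.203, and without P0 replicate 1 the last had one of 0.317. The gene lies at chr6:117900324-117925622, forward strand (GRCm38). On the opposite strand 13.5% and 13% of its exon bases overlap unclassified transcripts in GENCODE M21. Hnrnph3 took another course. It was at 193 and 175 TPM at E12.5, 176 and 174 at E14, 151 and 168 at E15.5, 116 and 119 at E17, and 75.2 and 76.3 at P0, so its largest step was the last, -0.63 (SE 0.08, adjusted p 0.000176), and its total change was -1.27 (SE 0.08, adjusted p 4.19e-08). Hnrnph1, the most abundant of the group, was at 657 and 619 TPM at E12.5, 570.4 and 573 at E14, 444 and 474 at E15.5, 339.9 and 372 at E17, and 273 and 337 at P0 (-1.07, SE 0.10, adjusted p 1.35e-06). The X-linked Hnrnph2 was at 168 and 161 TPM at E12.5, 142 and 146 at E14, 115 and 123 at E15.5, 82.2 and 91.4 at E17, and 64.8 and 80.4 at P0 (-1.18, SE 0.10, adjusted p 6.12e-07). In both genes P0 replicate 1 was the lowest of the 10 libraries.

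The other 9 hnRNPs also all fell, with a median of -1.12 and 5 lower by at least 1. Hnrnpm, a splicing regulator, fell most. Its libraries were at 261 and 249 TPM at E12.5, 213 and 196 at E14, 138 and 148 at E15.5, 97.6 and 97.8 at E17, and 71.4 and 84.6 at P0, and the change was -1.70 (SE 0.09, adjusted p 9.61e-09). No neighbouring stages overlapped. Hnrnpm shares 14.7% of its exon bases with March2 on the same strand in GENCODE M21. Hnrnpc, which binds U-rich tracts of nascent RNA, was at 651 and 668 TPM at E12.5, 612 and 562 at E14, 485 and 508 at E15.5, 298 and 408 at E17, and 229 and 285 at P0 (-1.37, SE 0.14, adjusted p 2.5e-06). Most of its fall lay after E15.5. Hnrnpu, a scaffold protein of chromatin and RNA, was at 517 and 506 TPM at E12.5, 405 and 396 at E14, 293 and 313 at E15.5, 241 and 252 at E17, and 193 and 232 at P0 (-1.27, SE 0.09, adjusted p 1.1e-07). Hnrnpk, which binds C-rich RNA through KH domains, went from 936 to 409 TPM (-1.20, SE 0.11, adjusted p 8.02e-07). Hnrnpl and its relative Hnrnpll bind CA repeats. Hnrnpl was at 218 and 243 TPM at E12.5, 199.7 and 179 at E14, 137 and 147 at E15.5, 125.28 and 109 at E17, and 105 and 106 at P0 (-1.12, SE 0.09, adjusted p 4.91e-07). Hnrnpll was at 126 and 119.6 TPM at E12.5, 110.0 and 104 at E14, 78.9 and 77.6 at E15.5, 60.3 and 67.2 at E17, and 60.5 and 61.9 at P0 (-0.99, SE 0.08, adjusted p 3.19e-07). Both P0 libraries of each gene lay below both of its E15.5 libraries. The least change in this list was that of Hnrnpul2. It was at 221 and 216 TPM at E12.5, 195 and 186 at E14, 179 and 193 at E15.5, 154.64 and 147 at E17, and 120.2 and 164 at P0 (-0.64, SE 0.12, adjusted p 0.000387), and its P0 libraries differed more from each other than the libraries of any other stage. Hnrnpul1 was at 140.3 and 154 TPM at E12.5, 129.5 and 123 at E14, 102 and 101 at E15.5, 100.1 and 82.5 at E17, and 91.2 and 84.7 at P0 (-0.74, SE 0.10, adjusted p 2.46e-05). Hnrnpr, which goes with mRNA into axons, was at 195 and 190.2 TPM at E12.5, 169.6 and 164 at E14, 169 and 175 at E15.5, 132 and 137 at E17, and 100.2 and 139 at P0 (-0.70, SE 0.12, adjusted p 0.000197). These were the next smallest changes of the list.

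**Figure D2:**
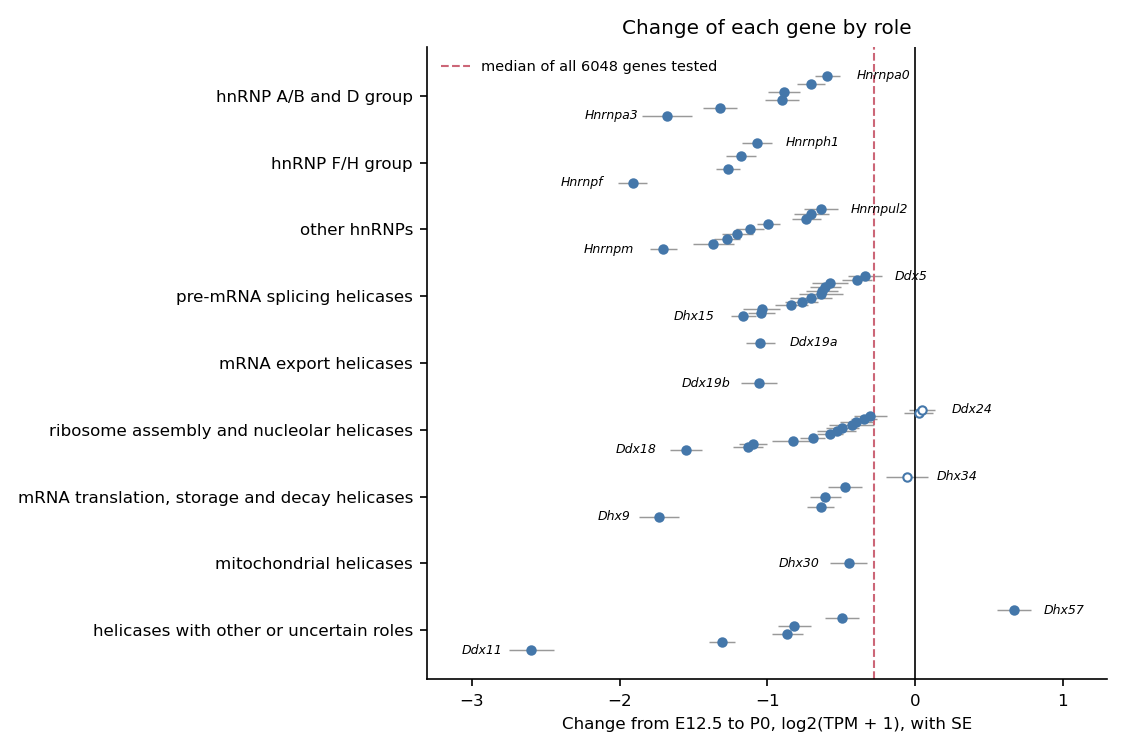
Change from E12.5 to P0 on the log2(TPM + 1) scale (horizontal axis, points with SE) of each of the 59 genes, grouped by role (vertical axis); filled points have an adjusted p under 0.05, open points do not, the dashed line is the median of all 6048 genes tested (-0.27), and the lowest and highest gene of each role is named. All hnRNP points lie left of the dashed line, and the right-hand points are those of Dhx57, Ddx24, Ddx49 and Dhx34.

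Turning to the helicases, 36 of 40 were called lower, with a median of -0.63, against 51.0% of all genes called lower and their median of -0.27. The counts of each helicase role are to be read against the same shares. Of the 12 that act in pre-mRNA splicing all fell, with a median of -0.67. Dhx15, which takes the spliceosome apart after splicing, fell most. It was at 147 and 144 TPM at E12.5, 122 and 129 at E14, 88.5 and 90.9 at E15.5, 73.7 and 71.2 at E17, and 60.1 and 69.3 at P0, and the change was -1.16 (SE 0.08, adjusted p 1.22e-07). Ddx23, which helps to release U1 from the splice site, went from 68.4 to 32.8 TPM (-1.04, SE 0.09, adjusted p 7.14e-07). Smaller falls were those of Dhx16 (-0.84), which activates the spliceosome, Dhx8 (-0.71), which releases the spliced mRNA, and Dhx38 (-0.57), which acts before the second step of splicing, and of Dhx35 (-0.64), Ddx46 (-0.63), Ddx42 (-0.61) and Ddx41 (-0.39). Their adjusted p lay between 2.52e-05 (Dhx16) and 0.00362 (Ddx41). Dhx38 was not called after quantile normalization (adjusted p 0.0662), nor was Ddx41 under median-of-ratios scaling (0.209) or quantile normalization (0.286). In GENCODE M21, 17.4% of the exon bases of Ddx41 overlap an antisense gene on the opposite strand. Ddx39b, which loads export factors on spliced mRNA, was at 310.2 and 335 TPM at E12.5, 295 and 300.4 at E14, 218 and 213 at E15.5, 269 and 201 at E17, and 192 and 186 at P0 (-0.77, SE 0.11, adjusted p 5.9e-05), with the E17 libraries far apart.

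Ddx5 and Ddx17, close relatives that serve in splicing, microRNA processing and transcription, were the most abundant splicing helicases. Ddx17 was at 353 and 358 TPM at E12.5, 308 and 313 at E14, 276 and 289 at E15.5, 307 and 218 at E17, and 168 and 177 at P0. It fell from E17 to P0 (-0.58, SE 0.12, adjusted p 0.00412), although its E17 libraries differed most, and the change from E12.5 was -1.04 (SE 0.12, adjusted p 1.15e-05). Ddx5 was at 669 and 671 TPM at E12.5, 638 and 643 at E14, 594 and 606 at E15.5, 505 and 537 at E17, and 456 and 615 at P0. The P0 libraries of Ddx5 lay on both sides of E17, and its change from E12.5 of -0.34 (SE 0.12, adjusted p 0.0186), the smallest of the list, was not called without E12.5 replicate 1 (adjusted p 0.0686), without E12.5 replicate 2 (0.0726), without P0 replicate 1 (0.185) or under median-of-ratios scaling (-0.06, 0.667). Beyond the shift of all genes, Ddx5 changed by -0.06 and Ddx17 by -0.76.

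The export helicases Ddx19a and Ddx19b, neighbours on chromosome 8 that remodel mRNA at the nuclear pore, both fell by 1.05. Ddx19a was at 62.9 and 68.9 TPM at E12.5, 56.8 and 49.6 at E14, 39.3 and 39.0 at E15.5, 35.7 and 31.9 at E17, and 30.8 and 32.0 at P0 (-1.05, SE 0.10, adjusted p 1.27e-06). Ddx19b was at 59.0 and 61.4 TPM at E12.5, 53.4 and 56.0 at E14, 38.3 and 36.7 at E15.5, 46.5 and 34.1 at E17, and 28.0 and 28.9 at P0 (-1.05, SE 0.12, adjusted p 8.55e-06). In both, the E15.5 libraries lay below the E14 libraries, and E17 replicate 1 of Ddx19b stood above E15.5. The genes are similar in sequence, so their reads could have been split.

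Ribosome assembly takes place mainly in the nucleolus and uses many helicases. Among 14 such genes, 12 were called lower and 2 were not called, with a median of -0.51. Ddx18 fell most. It was at 30.2 and 30.8 TPM at E12.5, 26.2 and 22.5 at E14, 17.4 and 16.4 at E15.5, 13.6 and 11.6 at E17, and 9.69 and 9.83 at P0, and the change was -1.55 (SE 0.11, adjusted p 1.3e-07). Its E17 libraries stood above its P0 libraries. Ddx21, a nucleolar helicase that also acts in transcription by RNA polymerases I and II, was at 75.8 and 78.9 TPM at E12.5, 66.7 and 61.7 at E14, 50.8 and 49.9 at E15.5, 39.2 and 34.3 at E17, and 32.1 and 37.7 at P0 (-1.13, SE 0.10, adjusted p 8.47e-07). Ddx52 went from 34.2 to 15.468 TPM (-1.10, SE 0.10, adjusted p 7.97e-07). Further falls were those of Ddx51 (-0.83), Ddx47 (-0.69), Ddx56 (-0.58), Ddx10 (-0.53), Ddx27 (-0.49), Dhx37 (-0.43), Ddx31 (-0.40) and Ddx54 (-0.30). Ddx50, the close relative of Ddx21, was at 45.1 and 42.8 TPM at E12.5, 43.1 and 46.0 at E14, 34.1 and 34.2 at E15.5, 34.6 and 33.5 at E17, and 33.2 and 35.6 at P0 (-0.35, SE 0.09, adjusted p 0.00296). Its E12.5 and E14 libraries overlapped, and all later ones lay below both.

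The smaller of these falls were less stable. Dhx37 lost its call without E12.5 replicate 2 (adjusted p 0.203), P0 replicate 1 (0.0916) or P0 replicate 2 (0.0713), Ddx54 without the same libraries (0.155, 0.112 and 0.0533), and Ddx31 without E12.5 replicate 2 (0.0539). Under median-of-ratios scaling Ddx10 (0.0677), Ddx31 (0.143), Ddx50 (0.405), Ddx54 (0.762) and Dhx37 (0.209) were not called. Under quantile normalization Ddx10 (0.587), Ddx27 (0.0633), Ddx31 (0.13), Ddx50 (0.367), Ddx54 (0.611) and Dhx37 (0.715) were not called, and the sign of Ddx31 and Dhx37 turned. Ddx24 and Ddx49 were not called over the whole span. Ddx24 was at 34.9 and 36.8 TPM at E12.5, 33.9 and 31.7 at E14, 33.6 and 32.6 at E15.5, 31.2 and 30.8 at E17, and 35.2 and 39.1 at P0, with overlapping E12.5 and P0 libraries (0.05, SE 0.09, adjusted p 0.634). Ddx49 was at 28.6 and 30.8 TPM at E12.5, 27.9 and 27.3 at E14, 26.9 and 28.3 at E15.5, 25.9 and 23.3 at E17, and 31.6 and 28.9 at P0 (0.03, SE 0.10, adjusted p 0.824). Both were lowest at E17 and were the members called higher from E17 to P0 (Ddx24 0.25, adjusted p 0.0434; Ddx49 0.29, adjusted p 0.0335). Those 2 calls held under 11 and 10 of 21 alternatives. Under median-of-ratios scaling both were called higher from E12.5 to P0 (0.32 and 0.29). Over this span each was called under 2 of 22 alternatives, that scaling among them. Of the exon bases of Ddx49, 29.8% overlap Homer3, a synaptic scaffold gene, on the opposite strand. Of those of Ddx54, 14.2% overlap an antisense gene, also on the opposite strand.

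Helicases of mRNA translation, storage and decay fell unevenly. Dhx9, also known as RNA helicase A, fell most of the members with a Dhx symbol. It was at 111 and 118 TPM at E12.5, 98.2 and 87.7 at E14, 67.5 and 72.4 at E15.5, 55.5 and 47.4 at E17, and 28.6 and 39.9 at P0. No neighbouring stages overlapped, the change was -1.73 (SE 0.14, adjusted p 3.02e-07), and the gene lies at chr1:153455758-153487660, reverse strand (GRCm38). Ddx6, which holds mRNAs in P-bodies and promotes their decay, had its called fall in the last step. It was at 575 and 560.2 TPM at E12.5, 535 and 574 at E14, 565 and 597 at E15.5, 515 and 507 at E17, and 330.0 and 421 at P0. From E17 to P0 its change was -0.45 (SE 0.10, adjusted p 0.00589), against -0.61 (adjusted p 0.000222) over the whole span. Ddx1, part of the tRNA ligase complex, went from 96.3 to 61.7 TPM (-0.64, adjusted p 5.23e-05), and Dhx29, which aids translation initiation on structured mRNA, from 15.4 to 10.9 TPM (-0.47, adjusted p 0.00277), a call lost under median-of-ratios scaling (0.0661) and quantile normalization (0.66). Dhx34, a factor of nonsense-mediated decay, was at 5.85 and 6.89 TPM at E12.5, 6.11 and 6.50 at E14, 6.05 and 6.10 at E15.5, 9.37 and 6.70 at E17, and 5.95 and 6.23 at P0. Its E17 replicate 1 stood above every other library, and the change of -0.05 (SE 0.14, adjusted p 0.752) was not called; its sign turned to 0.19 under median-of-ratios scaling and to 0.49, then called, under quantile normalization. The mitochondrial helicase Dhx30 was at 34.0 and 36.3 TPM at E12.5, 35.0 and 31.7 at E14, 31.9 and 33.4 at E15.5, 39.4 and 29.2 at E17, and 25.4 and 25.5 at P0, with both P0 libraries below all others (-0.45, SE 0.13, adjusted p 0.00637). It was not called under median-of-ratios scaling (0.115) or quantile normalization (0.107), and was just under the threshold without E12.5 replicate 2 (0.04995).

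The remaining 6 helicases hold both extremes of the set. Ddx11, a DNA helicase that acts in sister chromatid cohesion during replication, fell most of all members. It was at 11.7 and 12.8 TPM at E12.5, 8.46 and 9.11 at E14, 3.81 and 3.17 at E15.5, 3.10 and 1.99 at E17, and 1.31 and 1.08 at P0. The E15.5 libraries were far below the E14 libraries, P0 stood at 9.75% of the E12.5 mean, and the change was -2.60 (SE 0.15, adjusted p 2.31e-08) from E12.5 to P0 and -1.13 (SE 0.15, adjusted p 9.27e-05) from E14 to E15.5. With values this low the change depends on the pseudocount and ran from -3.26 to -0.99 over 22 alternatives, called in each. The gene lies at chr17:66123520-66152174, forward strand (GRCm38). Dhx57 rose. It was at 14.8 and 15.503 TPM at E12.5, 17.4 and 17.1 at E14, 23.9 and 23.7 at E15.5, 31.0 and 24.4 at E17, and 24.4 and 25.0 at P0, so every later library lay above E12.5, with the highest value in E17 replicate 1. The change was 0.67 (SE 0.11, adjusted p 0.000194) from E12.5 to P0 and 0.45 (SE 0.11, adjusted p 0.00663) from E14 to E15.5, and both calls held under each of 22 alternatives. Dhx57 lies at chr17:80238309-80290476, reverse strand (GRCm38), where 2.2% of its exon bases overlap Morn2 and 4.2% an antisense gene, both on the opposite strand.

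Dhx40 was at 43.1 and 41.7 TPM at E12.5, 38.0 and 39.6 at E14, 25.8 and 25.7 at E15.5, 21.5 and 21.0 at E17, and 15.9 and 17.2 at P0 (-1.31, SE 0.09, adjusted p 7.89e-08). The stages of Dhx40 did not overlap, and its drop was largest from E14 to E15.5. Ddx20, a component of the SMN complex that assembles spliceosomal particles, went from 13.9 to 7.22 TPM (-0.86, adjusted p 1.68e-05), Dhx32 from 32.7 to 18.1 TPM (-0.82, adjusted p 3.62e-05) and Ddx59 from 8.83 to 5.98 TPM (-0.50, adjusted p 0.0018). Ddx59 was not called under quantile normalization, where its change was 0.04.

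**Figure D3:**
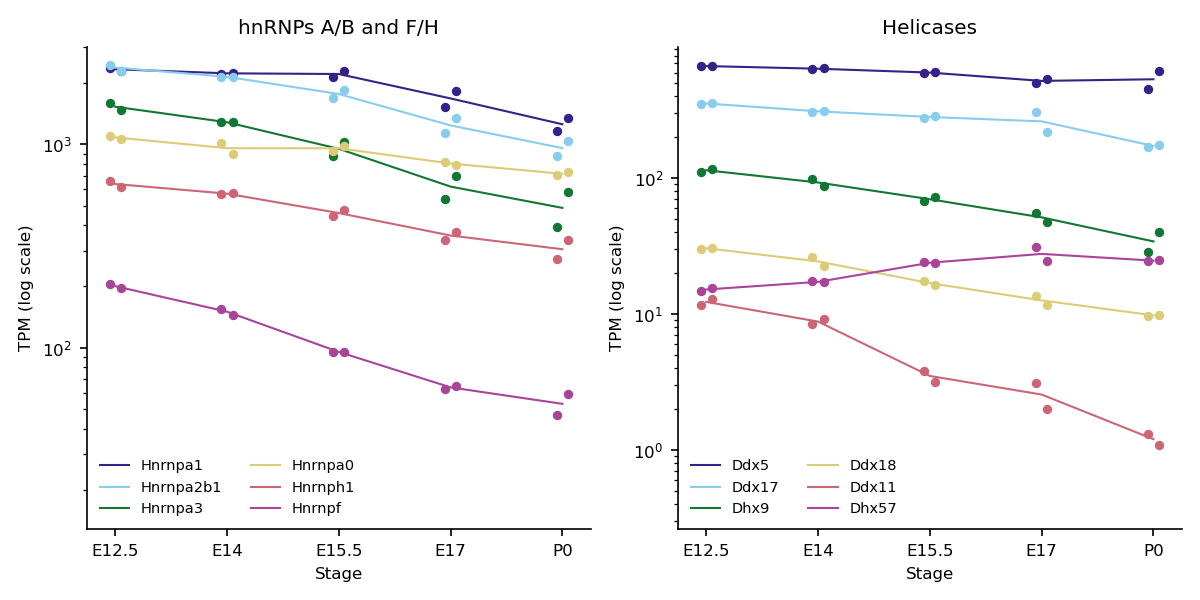
TPM on a log axis (vertical) at the 5 stages (horizontal) for 6 hnRNPs of the A/B and F/H groups (left) and 6 helicases (right); points are the 2 libraries of a stage and lines join stage means. Hnrnpf falls furthest on the left, from 201 to 52.9 TPM, and Ddx11 on the right, from 12.3 to 1.20 TPM, while Dhx57 climbs from 15.1 to 24.7 TPM.

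The fall was spread over all 4 steps. Of the 59 genes, 53 had their highest stage mean at E12.5 and 45 their lowest at P0, and 37 were lower at each step, against 47.9% of all genes highest at E12.5 and 21.4% lower at each step. Neighbouring steps share libraries, so their counts are not independent. From E12.5 to E14, 2 members were called lower (4.78% of all genes), Hnrnpf (-0.41, SE 0.10, adjusted p 0.0256) and Hnrnpu (-0.35, SE 0.09, adjusted p 0.0332). Calls in either direction made up 8.73% of all genes. None was higher by limma (3.95% of all genes), also at an unadjusted p under 0.05 (0 genes, against 17 lower). The members' median was -0.19 and that of all genes -0.06, and 57 of 59 members had a negative change. This count depended on the libraries in the fit, also on those of other stages, through the spread that all stages share. The 2 libraries of a stage differed more across the members at E17 (SD 0.227) than at E12.5 (0.092) or E14 (0.093). More members were called with array weights or with only the 4 libraries of the pair in the fit. The call of Hnrnpu held under 14 of 22 alternatives (adjusted p up to 0.212, without E14 replicate 2). The count was lower without any 1 of the E12.5, E14 or E15.5 libraries and higher without any 1 of the E17 or P0 libraries. Without both E17 libraries, an alternative chosen after seeing the data, it was 20. The share of all genes called under these settings is not given here. The counts therefore do not show whether members moved more than other genes.

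From E14 to E15.5, 29 members were called lower (33.3% of all genes) and Dhx57 higher (18.4% of all genes), with a median of -0.27 against -0.13 for all genes. Ddx11 fell most, followed by Hnrnpf (-0.65, adjusted p 0.000221) and Dhx40 (-0.57, adjusted p 0.000244). This was the step of the largest fall for 29 of the 59 genes. The meningeal, choroid plexus and embryonic globin genes also dropped between these stages, and their part in this step was not tested. hnRNPs made 9 of the calls (of 19) and helicases 20 (of 40). In either direction 30 members were called, against 51.7% of all genes. That count was smaller when E14 replicate 1 or either E15.5 library was left out. The share of all genes called in those fits is not given here.

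From E15.5 to E17, 20 members were called lower (10.6% of all genes) and 0 higher (14.4% of all genes; 1 member at an unadjusted p under 0.05 in limma). Calls in either direction made up 25.0% of all genes. The median of all genes was 0.01 and that of the members -0.20. The hnRNPs supplied 13 of the 20 calls, 13 of their 19 genes, and the helicases 7 of 40. The difference between the families was not tested. These calls used the spread shared by all stages, while replicates differed more across the members at E17 (SD 0.227) than at E15.5 (0.079). With only the 4 libraries of the pair in the fit, 3 members were called. Hnrnpk fell most (-0.63, SE 0.11, adjusted p 0.00213). Its libraries were at 949 and 923 TPM at E12.5, 818 and 765 at E14, 667 and 709.8 at E15.5, 423 and 466 at E17, and 363 and 455 at P0, so E17 lay below E15.5 by more than either stage's spread and P0 replicate 2 was within the range of E17. Hnrnpa3 (-0.62), Hnrnpf (-0.57), Hnrnpm (-0.54), Hnrnpa2b1 (-0.52) and Hnrnpc (-0.51) followed, with adjusted p between 0.00208 and 0.0221. Without E15.5 replicate 2, Hnrnpa3 (adjusted p 0.171), Hnrnpa2b1 (0.106) and Hnrnpc (0.132) were not called, nor were Hnrnpa3 (0.0577) and Hnrnpc (0.0931) without E15.5 replicate 1. Hnrnpk, Hnrnpf and Hnrnpm were called under each of 21 alternatives. The count of members called was smaller when either E15.5 library was left out and larger when either E17 library was. Without E17 replicate 2 some members were called higher, and without E17 replicate 1 all calls were lower. The share of all genes called in these fits, or with only the 4 libraries, is not given here. The counts therefore do not show whether members moved more than other genes.

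From E17 to P0, 16 members were called lower (28.8% of all genes) and 2 higher (12.9%), a share of calls below that of all genes (41.7%), with a median of -0.14 against -0.10. Ddx11 fell most (-0.68, SE 0.15, adjusted p 0.00528), then Hnrnph3, Dhx9 (-0.59, adjusted p 0.00629) and Ddx17. The P0 libraries decided much of this step. Replicates differed more across the members at E17 (SD 0.227) and P0 (0.164) than at earlier stages, while all stages shared one spread. With only the 4 libraries of the pair in the fit, 5 members were called. The count of 18 became smaller without P0 replicate 1 and larger without P0 replicate 2. Of the calls, 3 of 11 were higher under median-of-ratios scaling and 6 of 20 under quantile normalization. The share of all genes called under these settings is not given here. The counts therefore do not show whether members moved more than other genes. Without P0 replicate 1, Dhx9 was not called (adjusted p 0.0556).

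Related genes were set against each other within each library as ratios of TPM, over sets of relatives. Of 22 ratios, those described here were chosen after their values were seen, and they carry no test. In the A/B group, Hnrnpa3 lost ground to its relatives. The ratio of Hnrnpa1 to Hnrnpa3 was 1.49 and 1.57 at E12.5, 1.73 and 1.75 at E14, 2.46 and 2.23 at E15.5, 2.82 and 2.63 at E17 and 2.96 and 2.32 at P0. That of Hnrnpa3 to Hnrnpa0 was 1.45 and 1.38 at E12.5, 1.26 and 1.43 at E14, 0.94 and 1.05 at E15.5, 0.661 and 0.882 at E17 and 0.558 and 0.797 at P0, so Hnrnpa3 was above Hnrnpa0 in all E12.5 and E14 libraries and below it in all E17 and P0 libraries. In the F/H group the ratio of Hnrnph1 to Hnrnpf was 3.20 and 3.16 at E12.5, 3.68 and 3.94 at E14, 4.64 and 5.0 at E15.5, 5.41 and 5.75 at E17 and 5.82 and 5.71 at P0, with no overlap between E12.5 and any later stage, whereas Hnrnph1 to Hnrnph2 ran from 3.84 to 4.21 over all 10 libraries. Hnrnpu against Hnrnpul2 was 2.34 and 2.34 at E12.5, 2.08 and 2.13 at E14, 1.63 and 1.62 at E15.5, 1.56 and 1.71 at E17 and 1.60 and 1.41 at P0. For Ddx5 against Ddx17 the ratio was 1.90 and 1.88 at E12.5, 2.07 and 2.05 at E14, 2.15 and 2.09 at E15.5, 1.65 and 2.47 at E17 and 2.71 and 3.47 at P0, highest in both P0 libraries, with the E17 libraries on either side of the earlier stages. The nucleolar relatives Ddx21 and Ddx50 came to be level, with ratios of 1.68 and 1.84 at E12.5, 1.55 and 1.34 at E14, 1.49 and 1.46 at E15.5, 1.14 and 1.02 at E17 and 0.97 and 1.06 at P0. Ddx19a to Ddx19b overlapped between E12.5 and P0 (1.07 and 1.12 against 1.1 in both), as did Hnrnpl to Hnrnpll.

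**Figure D4:**
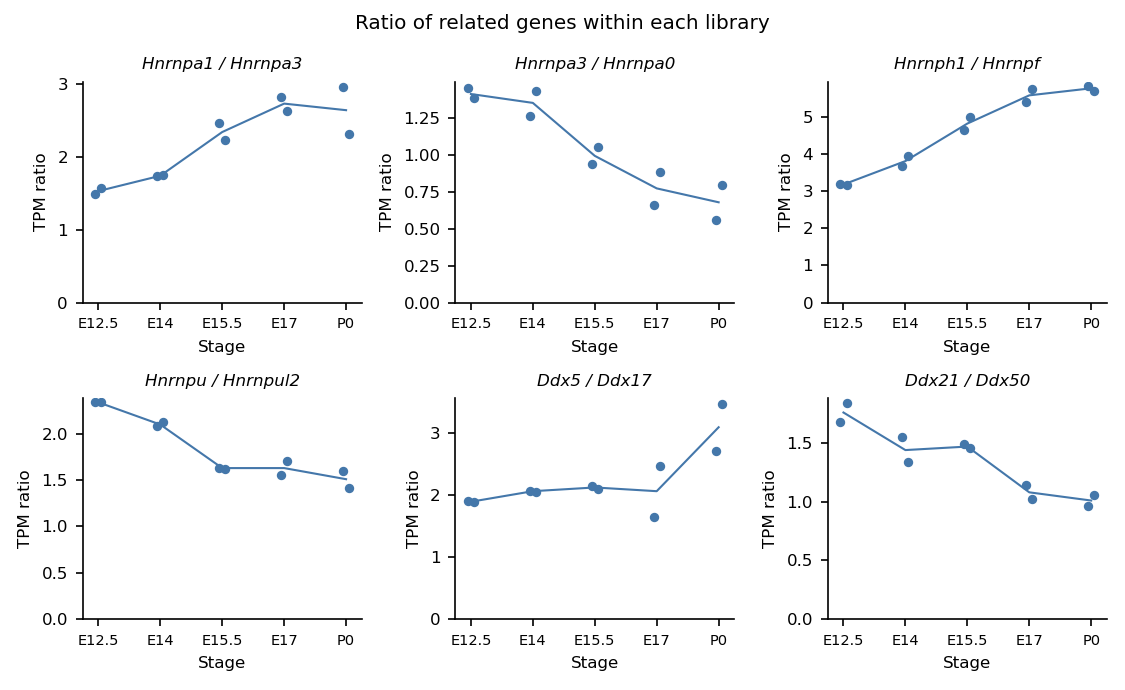
Ratio of TPM (vertical axis, from 0) of 6 pairs of related genes at the 5 stages (horizontal axis); points are the 2 libraries of a stage and lines join their means. Hnrnph1 to Hnrnpf rises from a mean of 3.18 to 5.77 and Hnrnpa3 to Hnrnpa0 drops from 1.41 to 0.678, while the E17 and P0 points of Ddx5 to Ddx17 are far apart.

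Relatives whose symbols follow other rules were counted from 2 further lists, to be read against the 51.0% of all genes called lower, the 27.1% called higher and the median of -0.27. Of 10 hnRNP proteins under other names, 7 were called lower at P0, Cirbp was higher, and Pcbp3 and Pcbp4 were not called, with a median of -0.69. Ptbp1, a splicing repressor of progenitors, had the lowest change (-2.73, SE 0.13, adjusted p 3.34e-09), from 219.6 to 32.3 TPM. Cirbp, an RNA-binding protein induced by cold, had the highest (1.87, SE 0.07, adjusted p 5.27e-10), from 192 to 704 TPM. Of 19 RNA helicases under other names, 13 were in the table. Of these, 11 were called lower, Eif4a2 was higher (1.51, adjusted p 3.59e-08) and Ythdc2 was not called, with a median of -0.71. Aqr, a helicase of the spliceosome, had the lowest change (-1.66, adjusted p 3.14e-07). The step and whole-span comparisons of these relatives use the same libraries as those of the members.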

How the data were processed

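RNA was measured in 10 libraries of mouse neocortex. Per the labels' protocols, frozen tissue was ground cold and lysed with detergent, debris was spun out, RNA was taken up in TriZOL LS, and an Illumina TruSeq kit for stranded mRNA was used. Per the file headers, the authors deposited TPM, 1 column per library. The submitters' processing notes name STAR, Subread and GRCm38.p5 (versions, annotation, gene lengths, strand setting and the choice of the 6147 rows: not given in the sources used here). Depth is unknown.

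Columns were assigned to libraries through their names, with 0 left over. Genes with a mean under 1 TPM were left out (99, no member), and log2(TPM + 1) of 6048 genes was modelled in limma 3.58.1 (R 4.3.3) by a mean for each stage. All 10 libraries entered and shared one estimate of the spread, with a variance trend. P values were adjusted by Benjamini-Hochberg and called under 0.05. Changes are on the log2(TPM + 1) scale, which understates those of low genes. The fit was tested on simulated data. Members and lists were chosen with earlier results of these data known, so no list was tested. Any member could be named in its role list. The rule for named genes given in full was the 6 largest rises and 8 largest falls from E12.5 to P0 among called members with libraries that did not overlap, the extremes of each role list, the called extremes of each step, the highest mean, and the sets of relatives. Positions and overlaps came from GENCODE M21 and promoters from RefSeq (both GRCm38). Python 3.11.15, pandas 2.3.3 and matplotlib 3.10.9 made the tables and figures.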

Additional observations from a re-analysis of the deposited data

How the results depend on the processing

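The settings varied were the pseudocount (0.1 or 10 TPM), the filter (none, or a mean of 5 TPM), scaling (quantile normalization or median-of-ratios), no variance trend, robust moderation, array weights, a replicate block, only the 4 libraries of a pair in the fit, and leaving out each library. The number of members called from E12.5 to P0 (56) stayed between 48 and 56, and that over the 5 stages (55, against 82.9% of all genes) between 49 and 57. The median change from E12.5 to P0 (-0.768) was -0.493 under median-of-ratios scaling, -0.64 under quantile normalization, -0.604 with a pseudocount of 10 TPM and between -0.857 and -0.722 without 1 library. Counts by step moved most. The counts in this paragraph are given without the share of all genes called under each setting. They do not show whether members moved more than other genes. From E12.5 to E14 (2) the count was 35 with array weights or with 4 libraries, 20 without both E17 libraries, 5 with a pseudocount of 10 TPM, 4 under quantile normalization, 1 under median-of-ratios scaling or with no variance trend, and 0 to 19 without 1 library. From E14 to E15.5 (30) it was 47 with array weights or with 4 libraries, and 17 to 39 without 1 library. From E15.5 to E17 (20) it was 9 with array weights, 3 with 4 libraries and 3 to 30 without 1 library. From E17 to P0 (18) it was 7 with array weights, 11 under median-of-ratios scaling, 5 with 4 libraries and 6 to 23 without 1 library. For single genes from E12.5 to P0, signs turned for Ddx24 without P0 replicate 2 (-0.02; without 1 library -0.02 to 0.12), Ddx49 without E12.5 replicate 1 (-0.03) or P0 replicate 1 (-0.04; without 1 library -0.04 to 0.09), Dhx34 without E12.5 replicate 2 (0.05; without 1 library -0.15 to 0.05), under median-of-ratios scaling (0.19) and under quantile normalization (0.49), and, under quantile normalization, Ddx31 (0.15), Ddx59 (0.04) and Dhx37 (0.05). The cause was not tested. With the replicate block the counts were 54 over the 5 stages, 2, 30, 18 and 15 by step, and 56 from E12.5 to P0. The labels do not say whether replicate numbers pair the libraries. The correlation of replicate differences between stages lay between -0.375 and 0.107 and was over 0.1 in 1 of 10 pairs of stages. Such values cannot exclude a pairing. Depth limits cannot be given, since TPM hold no counts.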
